A study of Rattus norvegicus with 2 samples.

Results

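The CC chemokine genes Ccl2, Ccl3, Ccl6 and Ccl24, the XC chemokine gene Xcl1 and the receptor gene Ccr2 were followed in single cells of the rat zygomatic maxillary suture, the fibrous joint between cheek bone and upper jaw. The distraction group consisted of 4-week-old rats with a W-shaped distractor across the suture, bent from NiTi wire 0.4 mm thick and pulling at first with 20 g, and the sham group of rats of the same age in which bone was drilled and no distractor placed; both were taken at day 7. Each group gave 1 BD Rhapsody library (a microwell method that counts barcoded molecules, UMIs, per gene and cell). The sources used here do not give strain, sex or how many animals a library pools. Of the 6 genes, 5 had a column in both count tables, out of 22154 genes in all; Ccr2 was not analysed here. The genes were chosen by name with their levels in these libraries already known, so what follows describes them and no p-value is given.

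Chemokines are small secreted proteins that draw leukocytes along a gradient by binding receptors coupled to G proteins. Ccl2 (MCP-1) recruits monocytes through Ccr2, Ccl3 (MIP-1 alpha) binds Ccr1, and Ccl24 (eotaxin-2) draws eosinophils through Ccr3. Ccl6 is a rodent chemokine that acts on Ccr1 in mice, and Xcl1 (lymphotactin) is the ligand of Xcr1, which in mice and humans marks cross-presenting dendritic cells. In bone, Ccl2 and Ccl3 are known for the recruitment of monocytes, some of which are osteoclast precursors.

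For 4 of the 6 genes RefSeq gives a promoter in its table of the assembly GRCr8, a later build than the Rnor_6.0 of the submitters' processing notes. The 250 bases before the start are shown for Ccl6, Ccl24 and Xcl1. No promoter was given there for Ccl2 and Ccl3, and that of Ccr2, which was not analysed here, is left out. Capitals mark letters that match, on either strand, GGAAGT (the core bound by ETS factors such as PU.1), TATAAA (the TATA box), TTC and GAA with 4 free bases between them (a STAT6 spacing), GGGA and CC with 4 free bases between them (an NF-kB form) or TGANTCA (AP-1).
Ccl6, chr10:68883367-68883616, minus strand: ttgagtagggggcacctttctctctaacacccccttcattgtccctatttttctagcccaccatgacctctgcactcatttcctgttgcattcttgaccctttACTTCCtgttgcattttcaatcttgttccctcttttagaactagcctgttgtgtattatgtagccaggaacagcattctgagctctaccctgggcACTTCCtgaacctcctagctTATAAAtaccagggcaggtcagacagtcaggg
Ccl24, chr12:26737173-26737422, plus strand: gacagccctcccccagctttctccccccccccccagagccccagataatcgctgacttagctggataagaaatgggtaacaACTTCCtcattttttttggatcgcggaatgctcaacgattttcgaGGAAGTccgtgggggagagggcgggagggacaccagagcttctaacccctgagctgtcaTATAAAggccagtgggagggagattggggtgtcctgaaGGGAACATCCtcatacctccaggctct
Xcl1, chr13:79785441-79785690, minus strand: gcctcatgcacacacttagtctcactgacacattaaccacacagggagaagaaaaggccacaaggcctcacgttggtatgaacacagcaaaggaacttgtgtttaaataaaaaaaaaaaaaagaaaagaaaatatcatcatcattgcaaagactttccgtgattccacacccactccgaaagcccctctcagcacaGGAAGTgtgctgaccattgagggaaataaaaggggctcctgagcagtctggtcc
The ETS core stood 147 to 142 and 52 to 47 bases before the start of Ccl6, 169 to 164 and 124 to 119 bases before that of Ccl24, and 54 to 49 bases before that of Xcl1. It was present in 19.2% of the 33469 promoters of the same length. TATAAA stood 32 to 27 bases before the Ccl6 start and 65 to 60 before the Ccl24 start, against 12.9% of all promoters. The NF-kB form was matched in Ccl24 alone of the 3, at 27 to 18 bases, against 16.4% of all promoters, and no match overlapped another. The STAT6 spacing (6.25% of all promoters) and the AP-1 letters (6.34%) were in none of these 3 windows. A match of letters is a description of the window and not a bound site.

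Kept cells numbered 4037 in distraction, with a median of 4161 UMIs, and 5183 in sham, with a median of 3033. The shallowest deposited cell held 125 UMIs in distraction and 920 in sham, and 22 cell indices occurred in both. A cell entered a class when that class had the largest share of its listed markers detected, with at least 3 markers and 25% of the list. This gave 24 distraction and 17 sham macrophages, 308 distraction and 286 sham monocytes, 26 distraction and 28 sham dendritic cells, 1205 distraction and 840 sham neutrophils, 26 distraction and 21 sham endothelial cells, and 57 distraction and 23 sham fibroblasts. Of the listed markers, C1qa was at 4124 CPM (counts of the gene per 1000000 counts of the class) in distraction macrophages and 4171 in sham macrophages. Csf1r was at 250.2 CPM in distraction and 249 in sham monocytes, and S100a8 at 74964 CPM in distraction and 60714 in sham neutrophils. Cdh5 was at 570 CPM in distraction and 668 in sham endothelial cells, and Col3a1 at 26086 CPM in distraction and 18867 in sham fibroblasts. Other fibroblast markers differed between the libraries in both directions. Thbs2 was at 1429 CPM in distraction and 590 in sham fibroblasts, and Dpt at 826 in distraction and 336 in sham. Lum was at 2681 CPM in distraction and 4852 in sham fibroblasts, and Dcn at 1046 in distraction and 2167 in sham. The part of these differences in the fibroblast ratios below was not tested. The dendritic gate held Cd74 at 5972 CPM in distraction and 6174 in sham, and Irf8 at 1218 CPM in distraction and 1155 in sham. Not every listed marker was higher in its gate. Fscn1 was at 0 in dendritic cells of both libraries, and Clec10a at 0 in those of distraction. Naaa was at 68.5 CPM in distraction dendritic cells, against 95.1 in other cells, and at 43.4 in sham, against 57.4. In neutrophils Fcnb was at 56.6 CPM in distraction, against 1046 in other cells, and at 164 in sham, against 795. Ltf was at 0.146 CPM in distraction and 0.454 in sham neutrophils. No doublets were removed.

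A level is given as the summed counts of a class in CPM. A ratio of distraction over sham was called when it reached 1.5 in either direction and its exact 95% interval, which covers counting error only, lay on 1 side of 1. Pairs of gene and class needed 10 counts over both libraries. Of the 30 pairs, 7 were called higher in distraction, 5 were called lower, 10 were not called and 8 had too few counts. In macrophages 2 of the 4 tested genes were called higher, beside a background of 6.45% of all 4261 genes tested there, and 1 was called lower (background 7.13%). In monocytes 1 of 5 was called higher (3.67% of 10317 genes) and 1 lower (3.71%). In dendritic cells 1 of 4 was called higher (5.65% of 5890 genes) and 3 lower (6.81%). None of the 4 tested in neutrophils was called, where 2.39% of 10393 genes were called higher and 14.3% lower. In endothelial cells 1 of 2 was called higher (4.82% of 4962 genes) and none lower (9.05%), and in fibroblasts 2 of 3 were called higher (5.35% of 6655 genes) and none lower (7.90%). Since the genes were chosen with these contrasts known, nothing is read from these shares.

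**Figure D1:**
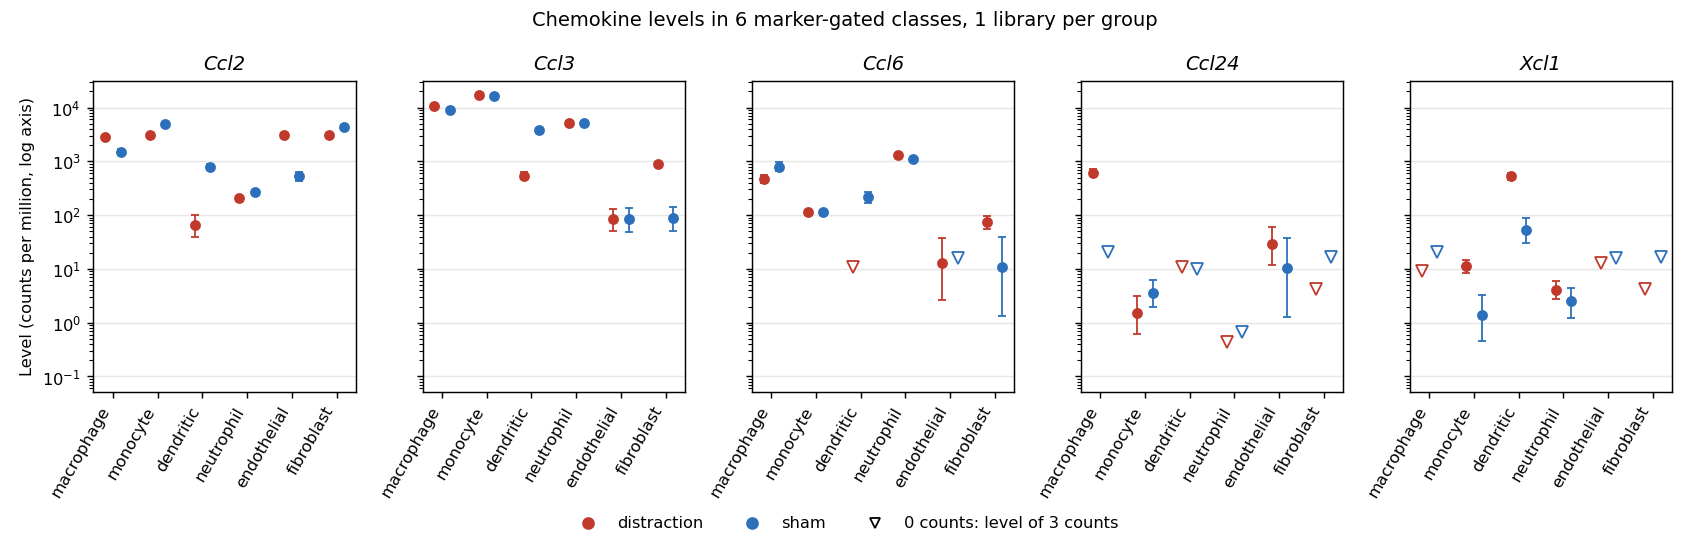
Level of each chemokine (CPM, log axis) in 6 marker-gated classes, with distraction left of sham and exact 95% Poisson intervals; open triangles mark 0 counts at the level of 3 counts. Ccl3 was at 16881 CPM in distraction and 16558 CPM in sham monocytes, while Ccl24 was at 614 CPM in distraction macrophages and had no count in sham macrophages.

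Ccl2 was carried mostly by monocytes, which held 62.5% of its 22187 distraction counts and 78.4% of its 22297 sham counts. It was called in opposite directions in different classes, a difference between classes that was not tested. In endothelial cells it was at 3064 CPM in distraction, against 526 CPM in sham, and was called higher by 5.83-fold (4.72 to 7.25). In monocytes it was at 3031 CPM in distraction, against 4881 CPM in sham, and was called lower by 1.61-fold (1.57 to 1.65).

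By level, the order in distraction was fibroblasts (3075 CPM), endothelial cells (3064), monocytes (3031), macrophages (2798), neutrophils (212) and dendritic cells (64.9). The counting intervals of each neighbouring pair among the first 4 overlapped. In sham the order was monocytes (4881 CPM), fibroblasts (4422), macrophages (1490), dendritic cells (801), endothelial cells (526) and neutrophils (265), and the intervals of each neighbouring pair were apart. In fibroblasts, 3075 CPM in distraction against 4422 CPM in sham was a ratio of 0.695 (0.641 to 0.755) and was not called. It was called lower under 3 alternatives, at log2 -1.67 without cells meeting another class's minimum, -0.95 with each cell weighted equally and -0.88 after thinning. Without the 3 highest cells of each library the ratio was 0.957.

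The monocyte difference lay in many cells. A monocyte-gated cell held a median of 8.5 Ccl2 UMIs in distraction, against 27.5 in sham, and the median cell level was 639 CPM in distraction, against 2899 CPM in sham. At least 1 UMI was found in 73.4% of distraction and 83.6% of sham monocytes, and in 60.5% of distraction and 77.9% of sham monocytes after thinning to 2000 UMIs per cell. Cells at 1000 CPM or more made up 45.1% of distraction monocytes and 68.9% of sham monocytes. Among B cells, which should lack the gene, 5.65% of distraction and 6.21% of sham cells had a UMI, at a median depth of 3048.5 UMIs in distraction and 2710 in sham B cells, against 12484.5 in distraction and 10413.5 in sham monocytes. The monocyte marker list was at 29767 CPM in distraction and 30702 CPM in sham monocytes, with all 13 measured markers present, and the dendritic list was at 1505 CPM in distraction and 3291 in sham monocytes with 14 of 16 present in each; the part of the dendritic markers in the result was not tested.

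In endothelial cells 13 of 26 distraction and 8 of 21 sham cells held Ccl2, and 6 distraction and 3 sham cells held at least 10 UMIs. The highest distraction cell held 36.2% of the counts and 2 cells held most of them. Without the 3 highest cells of each library the level was 665 CPM in distraction, against 120 CPM in sham, and the call held at 5.56-fold (3.41 to 9.55). The monocyte markers were at 1604 CPM in distraction and 1536 CPM in sham endothelial cells, 6 of 13 in each, with Csf1r, F13a1 and Ctss at 0. The endothelial list was at 6323 CPM in distraction and 6054 CPM in sham endothelial cells, but single markers differed in both directions. Vwf was at 452 CPM in distraction and 94.7 in sham, and Cldn5 at 71.8 in distraction and 273.5 in sham. The part of these differences in the result was not tested. Without cells that also held neutrophil markers (19 distraction and 11 sham cells left), the log2 ratio was 4.29, against 2.54 with all cells.

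In macrophages Ccl2 was at 2798 CPM in distraction, against 1490 CPM in sham, and was called 1.88-fold higher (1.62 to 2.19). It was found in 19 of 24 distraction and 10 of 17 sham cells, and 14 distraction and 3 sham cells held at least 10 UMIs. A single sham cell held 50.5% of the sham counts, and without the highest cell of each library the ratio was 2.62 (2.14 to 3.25). Median depth also differed, at 14714.5 UMIs in distraction and 5766 in sham macrophages. The monocyte markers were at 7910 CPM in distraction macrophages, with all 13 present, and at 5682 CPM in sham macrophages, with 11 present and Fn1 and F13a1 at 0. The dendritic markers were at 1909 CPM in distraction macrophages, 10 of 16 present, and at 710 CPM in sham macrophages, 8 of 16 present with the class II genes RT1-Bb and RT1-Da at 0. The part of either list in the result was not tested. With the 3 macrophages per library that met no other class's minimum, the log2 ratio was 0.17 and not called, and without cells that held neutrophil markers (11 in each library left) it was 2.08.

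The dendritic difference rested on few cells. Ccl2 had 18 counts in 3 of 26 distraction cells (64.9 CPM), against 240 counts in 11 of 28 sham cells (801 CPM), and was called 12.4-fold lower (7.65 to 21.2). A single sham cell held 85.4% of the sham counts, and without the highest cell of each library the fold was 4.07. That cell carried 205 Ccl2, 632 Ccl3 and 10 Ccl6 UMIs with 5 monocyte and 9 dendritic markers, and it clustered with the monocytes.

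**Figure D2:**
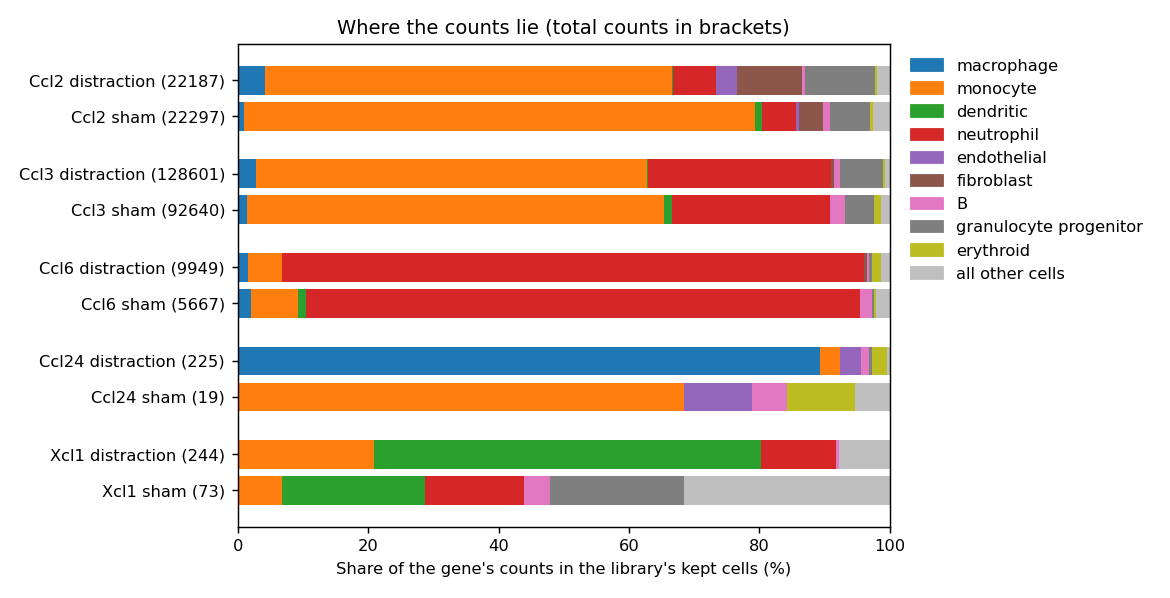
Share (%) of each gene's counts that lay in each gated class, distraction above sham, with total counts in brackets. Monocytes held 60.1% of distraction and 64.0% of sham Ccl3 counts, and neutrophils 89.2% of distraction and 85.0% of sham Ccl6 counts.

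Ccl3 did not differ by 1.5-fold in the 2 classes that held most of it. In monocytes it was at 16881 CPM in distraction, against 16558 CPM in sham, a ratio of 1.02 (1.009 to 1.031). In neutrophils it was at 5257 CPM in distraction, against 5073 CPM in sham, a ratio of 1.04 (1.02 to 1.05). It was found in 95.8% of distraction and 95.5% of sham monocytes, with a median of 225 UMIs per cell in distraction and 191 in sham. Monocytes held 60.1% of the 128601 distraction counts and 64.0% of the 92640 sham counts, and neutrophils 28.0% in distraction and 24.1% in sham.

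The order of Ccl3 levels in distraction was monocytes (16881 CPM), macrophages (10778), neutrophils (5257), fibroblasts (904), dendritic cells (544) and endothelial cells (84.4). In sham it was monocytes (16558 CPM), macrophages (9142), neutrophils (5073), dendritic cells (3883), fibroblasts (88.2) and endothelial cells (84.2), and the intervals of the last 2 overlapped. The endothelial level lay under that of B cells, which was 149 CPM in distraction and 158 CPM in sham, with a UMI in 34.3% of distraction and 31.7% of sham B cells. A share or level at that height is read as background and not as expression. In macrophages 10778 CPM in distraction against 9142 CPM in sham was a ratio of 1.18 (1.11 to 1.26), not called. A single sham macrophage held 51.6% of the sham counts, and without the highest cell of each library the ratio was 1.77 (1.62 to 1.93) and was called higher. With the 3 macrophages per library that met no other class's minimum the log2 ratio was -3.66 and was called lower.

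In fibroblasts Ccl3 was at 904 CPM in distraction, against 88.2 CPM in sham, and was called 10.2-fold higher (6.26 to 18.0). The sham level lay under the 158 CPM of sham B cells, so the fold is taken over a level read as background. The 649 distraction counts lay in 31 of 57 cells with a median of 1 UMI in those, and 42.2% were in 1 cell, which also held 7 monocyte and 6 neutrophil markers beside 9 fibroblast markers. A UMI was found in 54.4% of distraction and 34.8% of sham fibroblasts, and after thinning in 21.4% of distraction and 14.3% of sham fibroblasts, against 18.8% of distraction and 21.1% of sham B cells, so that the share of cells lay near background. Without the 3 highest cells of each library the level was 203 CPM in distraction, against 33.0 CPM in sham, and the fold was 6.15 (2.57 to 19.2). In fibroblasts that met no other class's marker minimum (14 distraction and 11 sham cells) the log2 ratio was -0.45 and not called. The monocyte markers were at 4681 CPM in distraction fibroblasts, 9 of 13 present, and at 3082 CPM in sham fibroblasts, 6 of 13 present with Csf1r and F13a1 at 0. Clec4a3, Clec4a1, Ctss and Ms4a6a were at 0 in fibroblasts of both libraries. That list includes the matrix gene Fn1 and Lyz2, which was at 3788 CPM in distraction and 2267 CPM in sham cells outside the monocyte gate. The part of the monocyte markers in the result was not tested. The neutrophil markers were at 1415 CPM in distraction fibroblasts, 14 of 15 present, and at 959 CPM in sham fibroblasts, 11 of 15 present, against 861 CPM in distraction and 843 CPM in sham B cells.

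In dendritic cells Ccl3 had 151 counts in distraction (544 CPM), against 1163 counts in sham (3883 CPM), and was called 7.13-fold lower (6.02 to 8.51). The sham cell described for Ccl2 held 54.3% of the sham counts, and without the highest cell of each library the fold was 4.71. Among the 6 distraction and 2 sham dendritic cells that met no other class's minimum, the log2 ratio was 1.26 and not called.

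**Figure D3:**
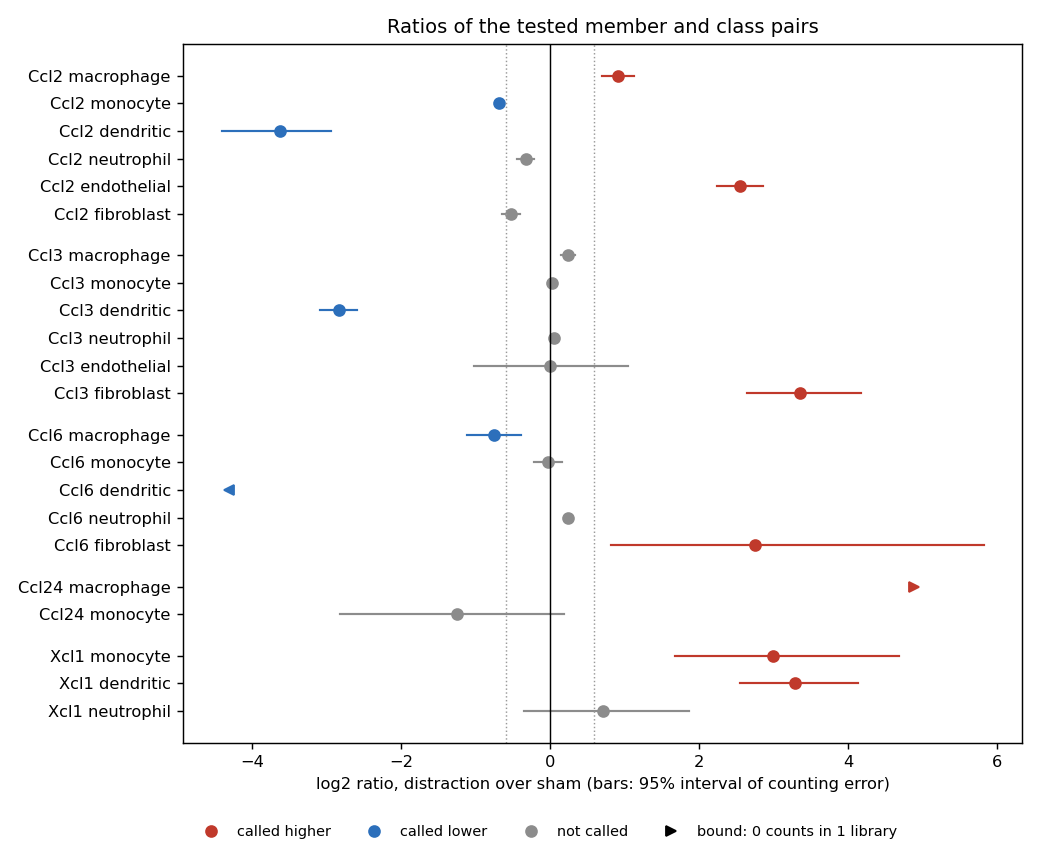
Log2 ratio of distraction over sham for the 22 tested pairs of gene and class, with 95% intervals of counting error; triangles are bounds against 0 counts and dotted lines mark a fold of 1.5. Ccl2 lay right of the line in macrophages and endothelial cells (log2 0.91 and 2.54) and left of it in monocytes and dendritic cells (-0.69 and -3.63).

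Ccl6 was carried mostly by neutrophils, with 89.2% of its 9949 distraction counts and 85.0% of its 5667 sham counts in that class. It was at 1294 CPM in distraction neutrophils, against 1095 CPM in sham neutrophils, a ratio of 1.18 (1.14 to 1.22) that was not called. Over all kept cells it was at 319 CPM in distraction, against 192 CPM in sham, and was called 1.66-fold higher (1.61 to 1.71), while neutrophils made up 29.8% of distraction and 16.2% of sham cells. Among all cells of the 3 clusters that held most neutrophil-gated cells, the level differed more between clusters than between libraries. In the cluster led by the decoy receptor gene Il1r2, Retnlg and the collagenase gene Mmp8, Ccl6 was at 5115 CPM in distraction and 4794 CPM in sham. In the cluster led by the granule genes Ngp and Lcn2 it was at 61.6 CPM in distraction and 62.7 in sham, and in the defensin-led cluster at 13.9 CPM in distraction, with 71.2% of its 52 counts in 1 cell, and 4.69 in sham.

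Ccl3 had the same order over these clusters. It was at 15312 CPM in distraction and 14842 CPM in sham in the cluster led by Il1r2. In the cluster led by Ngp it was at 2967 CPM in distraction and 3445 in sham, and in the defensin-led cluster at 916 CPM in distraction and 1060 in sham. The cluster led by Il1r2 made up 47.1% of distraction and 38.0% of sham neutrophil-gated cells, that led by Ngp 33.3% in distraction and 33.0% in sham, and the defensin-led 13.5% in distraction and 15.2% in sham. The part of these shares in the ratio of the whole class was not tested. Median depth had the opposite order. It was 14241.5 UMIs in distraction and 10809.5 in sham in the defensin-led cluster, 5762 in distraction and 5468.5 in sham in that led by Ngp, and 2792 in distraction and 2750 in sham in that led by Il1r2. The genes themselves were left out of the clustering.

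**Figure D4:**
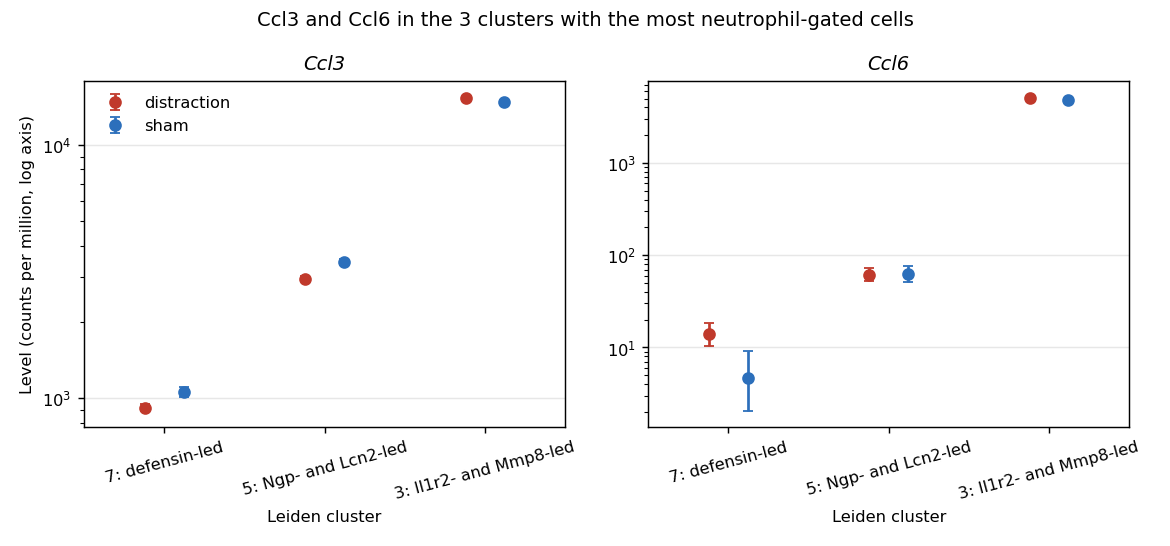
Level (CPM, log axis) of Ccl3 and Ccl6 in the 3 clusters with the most neutrophil-gated cells, distraction left of sham, with exact 95% Poisson intervals. Both genes were lowest in the defensin-led cluster and highest in that led by Il1r2, where Ccl6 was at 5115 CPM in distraction and 4794 CPM in sham.

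Among neutrophils 46.1% of distraction and 38.6% of sham cells had a Ccl6 UMI, and 39.0% of distraction and 33.8% of sham cells after thinning, against 1.60% of distraction and 1.76% of sham B cells without thinning. In monocytes the gene was at 113 CPM in distraction, against 115 CPM in sham, a ratio of 0.983 (0.862 to 1.12). Without the monocytes that held neutrophil markers (57 distraction and 76 sham cells left) the log2 ratio was 0.76 and was called higher, against -0.02 with all cells. That setting left out most monocytes, 251 of 308 in distraction and 210 of 286 in sham. The neutrophil list includes Fcnb, a leading gene of the main monocyte cluster. In macrophages Ccl6 was at 470 CPM in distraction, against 794 CPM in sham, and was called 1.69-fold lower (1.31 to 2.16). It was found in 14 of 24 distraction and 12 of 17 sham macrophages. That call ended without the highest cell of each library, at a ratio of 0.698 (0.516 to 0.949), and under 5 other settings.

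Ccl6 counts were few in the remaining classes. Distraction dendritic cells had no count, against 64 counts in 5 of 28 sham cells (214 CPM). Against the floor of 3 counts (10.8 CPM) the gene was at least 19.8-fold lower in distraction, and the bound of the exact 95% interval was 15.6-fold. A single sham cell held 50% of these counts, and without the 2 highest sham cells the fold against the floor was 3.99. The highest sham cell, with 32 counts, held 7 neutrophil and 4 monocyte markers beside 8 dendritic markers. It lay in a small cluster with monocyte markers led by Ccrl2. Distraction fibroblasts had 53 counts in 9 cells (73.8 CPM), against 2 counts in 1 sham cell (11.03 CPM), and the gene was called 6.69-fold higher (1.76 to 56.7). Without the 3 highest cells of each library 15 counts remained in distraction, against 0 in sham, and the difference was not called. The highest distraction cell, with 20 counts, held 7 neutrophil and 6 monocyte markers beside 9 fibroblast markers. Without the fibroblasts that held neutrophil markers (30 distraction and 17 sham cells left) fewer than 10 counts remained over both libraries, too few to test. In endothelial cells the 3 distraction counts and 0 sham counts were too few.

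Ccl24 was found mostly in distraction macrophages. It had 201 counts in 8 of 24 distraction macrophages (614 CPM), against 0 counts in 17 sham macrophages. Against the floor of 3 counts (20.9 CPM) it was at least 29.4-fold higher, and the bound of the exact 95% interval was 23.7-fold. These macrophages held 89.3% of the 225 distraction counts of the gene, and the sham library had 19 counts in all. Of the distraction counts 101 and 71 lay in 2 cells, and without the 3 highest cells 18 counts remained (71.3 CPM, at least 3.42-fold higher against the floor, with an interval bound of 2.503). After thinning it was left in 15.8% of 19 distraction macrophages, against none of 13 sham macrophages, whose median depth was lower. The monocyte and dendritic markers given for macrophages under Ccl2 were also higher in distraction, and their part in this result was not tested. All 8 cells also held Ccl3 and 7 held Ccl2. In the macrophage-led cluster, found without the gene, it was at 437 CPM in 30 distraction cells, against 3.82 CPM (1 count) in 24 sham cells. In monocytes 7 counts in 5 of 308 distraction cells stood against 13 counts in 4 of 286 sham cells, a ratio of 0.421 (0.142 to 1.14) that was not called, and 10 of the sham counts were in 1 cell. Neutrophils had none in 1205 distraction and 840 sham cells, which allows up to 0.438 CPM in distraction and 0.682 in sham, and dendritic cells and fibroblasts had none in either library. Endothelial cells had 7 counts in distraction, of which 6 were in 1 cell, and 2 in sham.

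Xcl1 was found in 24 distraction cells with 244 counts and 28 sham cells with 73 counts. Of these cells 22 distraction and 25 sham cells belonged to 1 cluster of 132 distraction and 107 sham cells, in which the level was 167 CPM in distraction and 55.8 CPM in sham. That cluster was mixed: its leading genes included Irf8 and class II genes of dendritic cells and Cd7, Ccl5 and Gzmk of lymphocytes, and it was left unnamed. Cells with a UMI of Siglech, in mice a marker of plasmacytoid dendritic cells, made up 11 of the 24 distraction and 9 of the 28 sham cells with Xcl1, and cells with Cd3e or Nkg7 made up 7 in distraction and 9 in sham.

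By gate, dendritic cells had 145 Xcl1 counts in 7 of 26 distraction cells (523 CPM), against 16 counts in 3 of 28 sham cells (53.4 CPM), and the gene was called 9.78-fold higher (5.82 to 17.6). Of these, 102 lay in 1 distraction cell, and without the highest cell of each library the fold was 8.25 (3.50 to 23.7). Siglech, a marker of the dendritic list, was itself at 151 CPM in distraction dendritic cells, against 73.5 CPM in sham dendritic cells; its part in the result was not tested. Monocytes had 51 counts in 5 of 308 distraction cells (11.1 CPM), against 5 counts in 4 of 286 sham cells (1.40 CPM), a call of 7.98-fold higher (3.21 to 25.6). Without the highest cell of each library it was 5.47 (1.63 to 28.6). The highest distraction cell, with 30 counts, lay in the mixed cluster and held 4 monocyte, 4 dendritic and 3 T or NK markers. Of the 5 distraction cells 2 held Siglech and 2 held Cd3e or Nkg7, and of the 4 sham cells 2 held Siglech. The main monocyte cluster had no Xcl1 count in either library, so the call is not read as one of typical monocytes. The T or NK gate had 8 counts in 3 of 21 distraction cells and 16 counts in 5 of 13 sham cells. In neutrophils 28 counts in distraction against 11 in sham were a ratio of 1.63 (0.789 to 3.64), not called here and called higher under 3 alternatives (log2 1.23, 1.997 and 2.92). They lay in 4 distraction cells, 2 of them with Siglech, and 7 sham cells, 3 of them with Siglech. The highest cell of each library, with 14 counts in distraction and 5 in sham, lay in the mixed cluster. The clusters led by Il1r2, Ngp and the defensins had no Xcl1 count apart from 1 in sham cells of that led by Ngp. Macrophages, endothelial cells and fibroblasts had none in either library.

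Within monocytes Ccl2 and Ccl3 divided the cells unevenly. Both genes had a UMI in 223 of 308 distraction monocytes (72.4%) and in 237 of 286 sham monocytes (82.9%). Ccl3 without Ccl2 was found in 72 distraction cells (23.4%), against 36 sham cells (12.6%), while Ccl2 without Ccl3 was found in 3 distraction and 2 sham cells. In both libraries the cells with Ccl3 and no Ccl2 included some of the mixed cluster described for Xcl1, so the split is not one of typical monocytes alone. Cells with neither numbered 10 in distraction and 11 in sham. A small cluster of 23 distraction and 9 sham cells, with monocyte markers and led by Ccrl2, Nr4a1 and the integrin gene Itgal, had Ccl3 at 38913 CPM in distraction and 28381 CPM in sham. Ccl2 had 3 counts there in distraction and 1 in sham. In the main monocyte cluster, with 276 distraction and 285 sham cells, Ccl2 was at 3301 CPM in distraction and 5166 in sham, and Ccl3 at 16478 CPM in distraction and 16499 in sham.

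**Figure D5:**
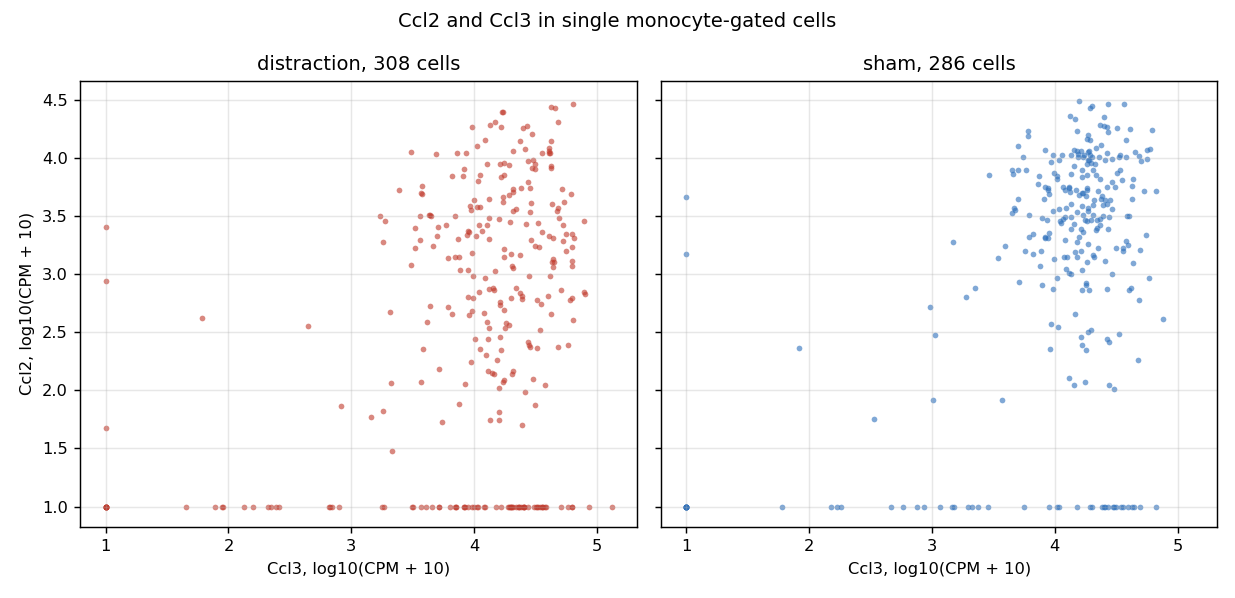
Ccl2 (vertical) against Ccl3 (horizontal) in each monocyte-gated cell, both as log10(CPM + 10), with distraction on the left and sham on the right. The row of points at the bottom holds cells with Ccl3 and no Ccl2, 72 of 308 in distraction and 36 of 286 in sham.

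The other genes of the system were counted over lists chosen with earlier results of these data known. Of 17 other ligand genes 14 were in the tables. In macrophages 3 of the 4 tested ligands were called higher (6.45% of all genes) and none lower (7.13%), with a median log2 ratio of 1.19 beside -0.02 for all genes. Other classes were mixed. In monocytes 1 of 6 was called higher (3.67% of all genes) and 2 lower (3.71%). In neutrophils 1 of 4 was called higher (2.39%) and 2 lower (14.3%). In endothelial cells 1 of 2 was called higher (4.82%) and none lower (9.05%). None of 3 was called in fibroblasts (5.35% of all genes higher, 7.90% lower). Among the macrophage ligands Ccl7 (MCP-3), which lies next to Ccl2 on rat chromosome 10, was at 2649 CPM in distraction, against 1504 CPM in sham (1.76-fold, 1.52 to 2.05). Ccl9, a rodent ligand of Ccr1 and the neighbour of Ccl6, was at 1537 CPM in distraction macrophages, against 522 CPM in sham macrophages (2.94-fold, 2.30 to 3.80). Ccl4 (MIP-1 beta), the neighbour of Ccl3, was at 12098 CPM in distraction macrophages, against 13946 CPM in sham macrophages. That ratio of 0.867 (0.822 to 0.916) was not called.

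The neighbouring ligands did not always go with the gene beside them. In monocytes Ccl7 was at 420 CPM in distraction, against 433 CPM in sham, a ratio of 0.971 (0.907 to 1.04), where Ccl2 was called lower. Ccl9 there was at 76.7 CPM in distraction, against 132 CPM in sham, and was called lower at a ratio of 0.581 (0.504 to 0.668). In endothelial cells Ccl7 had 82 counts in 4 distraction cells (346 CPM), against 3 counts in 3 sham cells (15.8 CPM), and was called 21.9-fold higher (7.25 to 109), with 62.2% of the distraction counts in 1 cell. In dendritic cells all 5 tested ligands were called lower (6.81% of all genes), with a median log2 ratio of -2.21 beside -0.04 for all genes, and these calls rested on few sham cells. Ccl4 was at 148 CPM in distraction, against 367 CPM in sham, with 54.5% of the sham counts in 1 cell. Ccl5 had 0 counts in distraction, against 35 in 1 sham cell, and Ccl7 had 0 in distraction, against 12 in 1 sham cell.

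Of 16 other receptor genes 13 were in the tables. Ccr1, a receptor of Ccl3, had 52 counts in 7 distraction macrophages, against 1 count in 1 sham macrophage, and was the 1 receptor called higher of 4 tested there (22.8-fold, 3.92 to 918), where 6.45% of all genes were called higher. Of the receptors tested elsewhere, 1 of 6 was called higher (3.67% of all genes) and 2 lower (3.71%) in monocytes. Called lower were 1 of 3 in dendritic cells (6.81%), 1 of 5 in neutrophils (14.3%) and none of 2 in fibroblasts (7.90%). None was called higher in dendritic cells (5.65%), neutrophils (2.39%) or fibroblasts (5.35%). Ccr1 was not called in monocytes, at 258 CPM in distraction against 249 CPM in sham. Nor was it called in neutrophils, at 286 CPM in distraction against 206 CPM in sham (1.39, 1.29 to 1.51). Ccr3, the receptor of Ccl24, was at 156 CPM in distraction macrophages and 139 CPM in sham macrophages, not called. Xcr1, the receptor of Xcl1, had 6 counts in distraction and 4 in sham over all kept cells. Of the 18 measured genes that signal behind these receptors, none of 17 tested was called in monocytes (3.67% of all genes higher, 3.71% lower). In neutrophils 1 of 16 was called higher (2.39%) and none lower (14.3%). In macrophages 1 of 12 was called lower (7.13% of all genes) and none higher (6.45%), and in dendritic cells 1 of 12 lower (6.81%) and none higher (5.65%). In endothelial cells 1 of 9 was called lower (9.05%) and none higher (4.82%), and in fibroblasts 1 of 10 lower (7.90%) and none higher (5.35%).

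Of 17 genes of NF-kB feedback and inducing cytokines, 16 were tested in monocytes and none was called, beside the same shares of all genes. Il1b was at 9494 CPM in distraction monocytes, against 7860 CPM in sham monocytes (1.21, 1.19 to 1.23), and Nfkbia, the inhibitor that NF-kB induces, at 4740 CPM in distraction, against 4339 CPM in sham (1.09, 1.07 to 1.12). In neutrophils, of 15 tested none was called higher (2.39% of all genes) and 1 lower (14.3%), with Il1b at 4389 CPM in distraction and 3909 CPM in sham. In dendritic cells Il1b was at 642 CPM in distraction, against 1846 CPM in sham, and was called 2.88-fold lower, while the list went both ways there, with 2 of 12 called higher (5.65% of all genes) and 2 lower (6.81%) and a median log2 ratio of 0.22. The median log2 ratio of all genes was -0.21 in neutrophils and -0.12 in endothelial cells. When neutrophils were scaled by the median ratio of the genes with at least 50 counts in each library, a narrower set, the log2 ratios were 0.23 for Ccl3 and 0.42 for Ccl6, neither of them called.

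The genes most like each chemokine were sought over 22 profiles (11 classes with at least 15 cells in each library), by Pearson's r of log2(CPM + 10) among 4314 genes with at least 100 CPM in a profile. This is a description, since profiles of a library share its depth and free RNA. Ccl3 was closest to Il1b (0.95), Atp6ap2 (0.94) and Pik3r5 (0.93), and Ccl2 to the stress factor gene Atf3 (0.90), the glycolysis regulator Pfkfb3 (0.89) and the haem oxygenase gene Hmox1 (0.85). Ccl6 was closest to AC114233.2 (0.94), the immunoglobulin receptor gene Fcgr1a (0.92) and Il1rn (0.85), which encodes the interleukin 1 receptor antagonist. Xcl1 was closest to Siglech (0.96), the chemokine receptor gene Cxcr3 (0.94) and Mycl (0.93). Siglech is itself a marker of the dendritic gate, and the T or NK class, which carried Xcl1 at 68.9 CPM in distraction and 143 CPM in sham, was not among the profiles, having 13 sham cells. Ccl24 was closest to Cxcl11 (0.85), Tm4sf19 (0.83) and Tnfsf18 (0.81).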

How the data were processed

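Single-cell RNA was measured in 1 distraction and 1 sham library. The deposited counts are molecules (UMIs) per cell and gene; per the file headers, the authors obtained them from version 1.5.1 of the BD WTA Rhapsody Analysis Pipeline. The submitters' processing notes name Rnor_6.0 and Seurat 3.6 without a role. Cell calling, annotation and use of strand: not given in the sources used here.

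Kept cells had 500 or more UMIs, 200 or more genes and a mitochondrial share below 25%; they hold 31202493 UMIs in distraction and 29488955 in sham. Genes missing from 1 table were set to 0 there. A cell was given the class, of 20 marker lists, whose markers were detected in the largest share (at least 3 markers and 25%; ties left out); dendritic cells also needed 3 markers outside class II. This scoring rule was set after the counts had been seen, and the members, marker lists and gene lists were chosen with earlier results of these data known. All 5 members were named in every class. Up to 3 genes of a list per class (50 CPM in 1 library, 30 counts over both) and the 3 genes closest in pattern to a member could be named. Outside that rule, Xcr1, the all-cell Ccl5 counts, the Ccl7 counts in dendritic cells, and the cells and clusters singled out were chosen after their values were seen.

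Counts were summed by class and library. Ratios carry exact conditional binomial 95% intervals, levels exact Poisson and shares exact binomial ones, all for counting error only; a floor of 3 counts over the class stands for 0. Each group being 1 library, no replicate check and no p-value can be given. Clusters came from scanpy 1.11.5 and leidenalg 0.10.2 (2000 variable genes without the members, 30 components, 15 neighbours, resolution 1), which gave 23. The ratio and call were run on simulated Poisson counts, which follow the model that the intervals assume. Those counts lack the concentration in single cells seen here, so the run cannot show how reliable the calls are under it. Promoters are RefSeq's (GRCr8), a build other than that of the counts, so no position was carried over.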

Additional observations from a re-analysis of the deposited data

Results flagged for a closer look

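Ccl2, Ccl3 and Ccl6 were each called in opposite directions in different classes of the same 2 libraries; the difference between classes was not tested. The log2 ratio of distraction over sham for Ccl2 was 0.91 in macrophages and 2.54 in endothelial cells, and -0.69 in monocytes and -3.63 in dendritic cells. For Ccl3 it was 3.36 in fibroblasts and -2.83 in dendritic cells. For Ccl6 it was 2.74 in fibroblasts, and -0.75 in macrophages and -4.30, a bound against 0 distraction counts, in dendritic cells.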

How the results depend on the processing

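No paired analysis was possible because each group has 1 library. All 16 alternatives were run, 3 of them chosen after seeing the data (both dendritic gates and the removal of cells with neutrophil markers). The 7 higher and 5 lower calls became 4 and 1 with classes from clusters, which gave no dendritic or endothelial class; 3 pairs were lower with a fold of 2, and 3 when cells meeting another class's minimum were left out. Apart from the classes from clusters there were 5 to 8 higher calls, and apart from these 3 settings 4 or 5 lower calls. Of 12 called pairs, 7 kept their call wherever they had a value. Among these, Ccl6 in fibroblasts had a value under 13 of the 16 alternatives, and none without cells holding neutrophil markers. Of 329 values of pairs, 306 kept the call, 9 lost it, 9 gained one and 5 turned. Those that turned were, with cells meeting another class's minimum left out, Ccl3 in macrophages (-3.66, called), dendritic cells (1.26) and fibroblasts (-0.45) and Ccl6 in monocytes (1.011, called), all in log2, and, without cells holding neutrophil markers, Ccl6 in monocytes (0.76, called). The cause was not tested, but that first setting left 3 macrophages in each library, 6 distraction and 2 sham dendritic cells, and 14 distraction and 11 sham fibroblasts. The intervals cover counting error only; classes of under 30 cells, doublets that were not removed and free RNA are not covered by them.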

Other observations

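Outside the 6 classes Ccl3 and Ccl2 were also found in granulocyte progenitors, the precursors that carry the primary granule genes Mpo and Elane. Ccl3 was at 1609 CPM in 203 distraction progenitors, against 1727 CPM in 132 sham progenitors, and Ccl2 at 461 CPM in distraction, against 585 CPM in sham. These cells held 10.8% of distraction and 6.25% of sham Ccl2 counts.

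In mural cells, the contractile cells of small vessels, Ccl2 had 80 counts in 3 of 7 distraction cells, of which 71 were in 1 cell, against 173 counts in 5 of 6 sham cells. A cluster led by the eosinophil and basophil granule genes Prg2, Epx and Mcpt8 had Ccl6 at 345 CPM in 70 distraction cells, against 754 CPM in 82 sham cells. Eosinophil-gated cells did not show this, with Ccl6 at 109.5 CPM in distraction (30 counts) and 92.0 CPM in sham (20 counts), and basophil or mast cells had 2 counts in distraction and 3 in sham. Ccl5, the ligand that marks cytotoxic lymphocytes, had 82 counts in 7 distraction cells, against 495 counts in 25 sham cells.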
